A study of Homo sapiens with 12 samples.

Results

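The epithelial junction, polarity and splicing program was followed as a set of 32 genes, chosen by name, through 12 arrays of lung adenocarcinoma cells. The choice was made with earlier results of these data known, so counts of members beside shares of all probe sets are descriptions. A gene entered by its symbol in the platform annotation, and 30 of the 32 were found, each on 1 probe set, among 21448 probe sets in all. F11R and ESRP2 were not analysed here.

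Epithelial cells adhere through tight junctions, adherens junctions and desmosomes, and polarity complexes keep the apical side apart from the basal side. Grainyhead-like (GRHL) and ELF3 transcription factors switch on many of these genes, OVOL factors restrain mesenchymal ones, and ESRP proteins impose the epithelial pattern of alternative splicing. Carcinoma cells that pass through an epithelial to mesenchymal transition lose much of this program, and in EGFR-mutant lung cancer that transition is known to accompany tolerance of EGFR inhibitors.

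The 4 groups had 3 arrays each. Both lines, PC-9 and H1975, are adenocarcinoma lines with EGFR mutations. The SK-216 groups of PC-9 and of H1975 held cells alive after 48 h with 100 µM SK-216, described by the submitters as an inhibitor of plasminogen activator inhibitor 1. The tolerant groups of PC-9 and of H1975 held cells that were alive on day 8 of culture with 0.5 µM osimertinib, an EGFR inhibitor, and SK-216 was given to such cells. All groups had therefore met osimertinib, no untreated cells were analysed here, and with no tolerant group of the later time, SK-216 and the added 48 h cannot be told apart. The source names of the SK-216 samples call the starting cells naive, against their titles and treatment texts, and no label says whether osimertinib was kept on. Only survivors of each step were collected. No label says that replicates were separate cultures, so the p-values speak of variation among these arrays alone, and that variation may be technical.

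Pearson's r over all probe sets lay from 0.993 to 0.995 for pairs of arrays within a group, and from 0.927 to 0.932 for pairs that joined a PC-9 array to an H1975 array. The 6 markers of epithelial lines (KRT8, KRT18, KRT19, CDH1, EGFR and MUC1) averaged above a log2 signal of 5.06 in all 4 groups. That level was the 95th percentile of 348 olfactory receptor probe sets, genes that such cells are not known to use, and it serves below as a mark of dim signal, since no detection call came with the values. The leukocyte marker PTPRC averaged between 3.78 and 4.11 and the endothelial marker PECAM1 between 3.98 and 4.27 over the groups, below that mark. Over the lists, 3 of 6 fibroblast markers averaged above it in every group, 2 or 3 of 5 leukocyte markers, and of 4 endothelial markers 2 in PC-9 and 0 in H1975 groups. The mean level of the fibroblast list lay between 5.47 and 5.62 in PC-9 SK-216 arrays, 5.33 and 5.47 in tolerant PC-9 arrays, 5.83 and 6.05 in H1975 SK-216 arrays, and 5.99 and 6.12 in tolerant H1975 arrays. The part of other cells in the results was not tested beyond these levels.

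The program was far higher in PC-9 than in H1975 cells. Between tolerant cells, 27 of 30 members were higher in PC-9 and 1 was lower, where 21.3% of all probe sets were higher and 22.7% lower (limma, adjusted p below 0.05 over all probe sets). The median difference, PC-9 minus H1975, was 2.00 on the log2 scale for the members and 0.02 for all probe sets. Between SK-216 groups, which share no array with the tolerant groups, 25 members were higher in PC-9 and 1 was lower, against 21.6% and 22.2% of all probe sets. In both comparisons 24 of 30 members were higher in PC-9. The share of all probe sets higher in both was not counted, and it cannot exceed the 21.3% between tolerant cells. RNA was measured in bulk, so fewer cells with a gene and less RNA per cell cannot be told apart.

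Of the transcription factors, 5 of 6 were higher in tolerant PC-9 than in tolerant H1975 cells. GRHL2, which binds enhancers of junction genes, had 12.81, 12.60 and 12.51 in tolerant PC-9 arrays, against 5.18, 6.36 and 5.75 in tolerant H1975 arrays. The arrays of the lines did not overlap, and the difference was 6.88 ± 0.23 (log2 difference ± standard error, as in all differences below, 3 arrays per group, limma adjusted p = 1.08e-17). OVOL1, a zinc finger factor that restrains mesenchymal genes, differed by 3.39 ± 0.25, its relative OVOL2 by 2.14 ± 0.24, ELF3, an ETS factor of epithelia, by 1.93 ± 0.21 and GRHL1 by 1.73 ± 0.25. GRHL1, OVOL1 and OVOL2 averaged below the dim mark in both H1975 groups, so their sizes are open to the low end of the signal. With tolerant H1975 arrays raised to that mark where they lay below it, the differences were at least 0.86 for GRHL1, 1.87 for OVOL1 and 1.34 for OVOL2, and bounds below were made in the same way. Such bounds are differences of means and carry no standard error. GRHL3, a factor of skin barrier formation, averaged below it in both lines, with a difference of 0.03 ± 0.21 that did not pass.

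The splicing regulator ESRP1 was bright in tolerant PC-9 cells and dim in tolerant H1975 cells. Its 3 arrays read 14.69, 14.65 and 14.64 in tolerant PC-9 cells, against 4.73, 4.05 and 3.84 in tolerant H1975 cells, where all 3 lay below the dim mark. The measured difference was 10.45 ± 0.21 (adjusted p = 4.43e-22), and at least 9.60 above the dim mark. ST14, the membrane protease matriptase, had 14.18, 13.98 and 13.83 in tolerant PC-9 cells, against 5.13, 4.29 and 4.61 in tolerant H1975 cells. Its tolerant H1975 mean of 4.68 was also below the dim mark, and its measured difference was 9.32 ± 0.25, at least 8.92. The Kunitz inhibitors that hold matriptase in check were higher too, SPINT1 by 6.66 ± 0.16 and SPINT2 by 4.47 ± 0.17, so that the protease and both inhibitors were higher in the same line.

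Among adhesion molecules and tight junction proteins, EPCAM, a homophilic adhesion molecule, differed by 7.11 ± 0.13, PROM2, a pentaspan protein of membrane protrusions, by 5.64 ± 0.18 and CDH3, P-cadherin, by 2.05 ± 0.14. All 4 claudins, which form the sealing strands, were higher in PC-9, CLDN7 by 6.01 ± 0.13, CLDN4 by 4.20 ± 0.14, CLDN1 by 1.83 ± 0.08 and CLDN3 by 1.46 ± 0.28. Occludin, OCLN, differed by 4.76 ± 0.14, and its MARVEL-domain relatives MARVELD3 and MARVELD2 by 0.97 ± 0.17 and 0.60 ± 0.13. The scaffolds that tie strands to actin were higher in PC-9 as well, TJP3 by 1.95 ± 0.32 (at least 1.64, from a dim tolerant H1975 mean), CGN, cingulin, by 1.49 ± 0.25 and TJP1, ZO-1, by 0.88 ± 0.13. TJP1 was bright in both lines, with a mean of 14.68 ± 0.33 in tolerant PC-9 cells and 13.80 ± 0.18 in tolerant H1975 cells (SD, n = 3 each).

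Polarity and desmosome genes were uneven. RAB25, a GTPase of apical recycling, differed by 6.01 ± 0.18, CRB3, the epithelial Crumbs protein, by 1.45 ± 0.19 and LLGL2, a basolateral determinant, by 1.40 ± 0.30. RAB25 and LLGL2 averaged below the dim mark in tolerant H1975 cells, and their differences were at least 5.85 and 0.51. PARD6B, an adaptor of atypical protein kinase C, had 12.10, 11.86 and 11.74 in tolerant PC-9 cells, against 11.80, 11.90 and 11.74 in tolerant H1975 cells. These values overlapped and the difference of 0.09 ± 0.12 did not pass (95% interval -0.15 to 0.33). Of the desmosome genes, JUP, plakoglobin, was higher in PC-9 by 3.50 ± 0.11, while PKP3, plakophilin 3, differed by 0.62 ± 0.24 (adjusted p = 0.0443) with means below the dim mark in both lines. DSP, desmoplakin, went the other way, with 12.75, 12.54 and 12.76 in tolerant PC-9 cells, against 13.26, 12.98 and 12.85 in tolerant H1975 cells. It was lower in PC-9, by -0.35 ± 0.11 (adjusted p = 0.0113), the 1 member with that direction. The calls of PKP3 and DSP each ended when single arrays were left out.

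**Figure D1:**
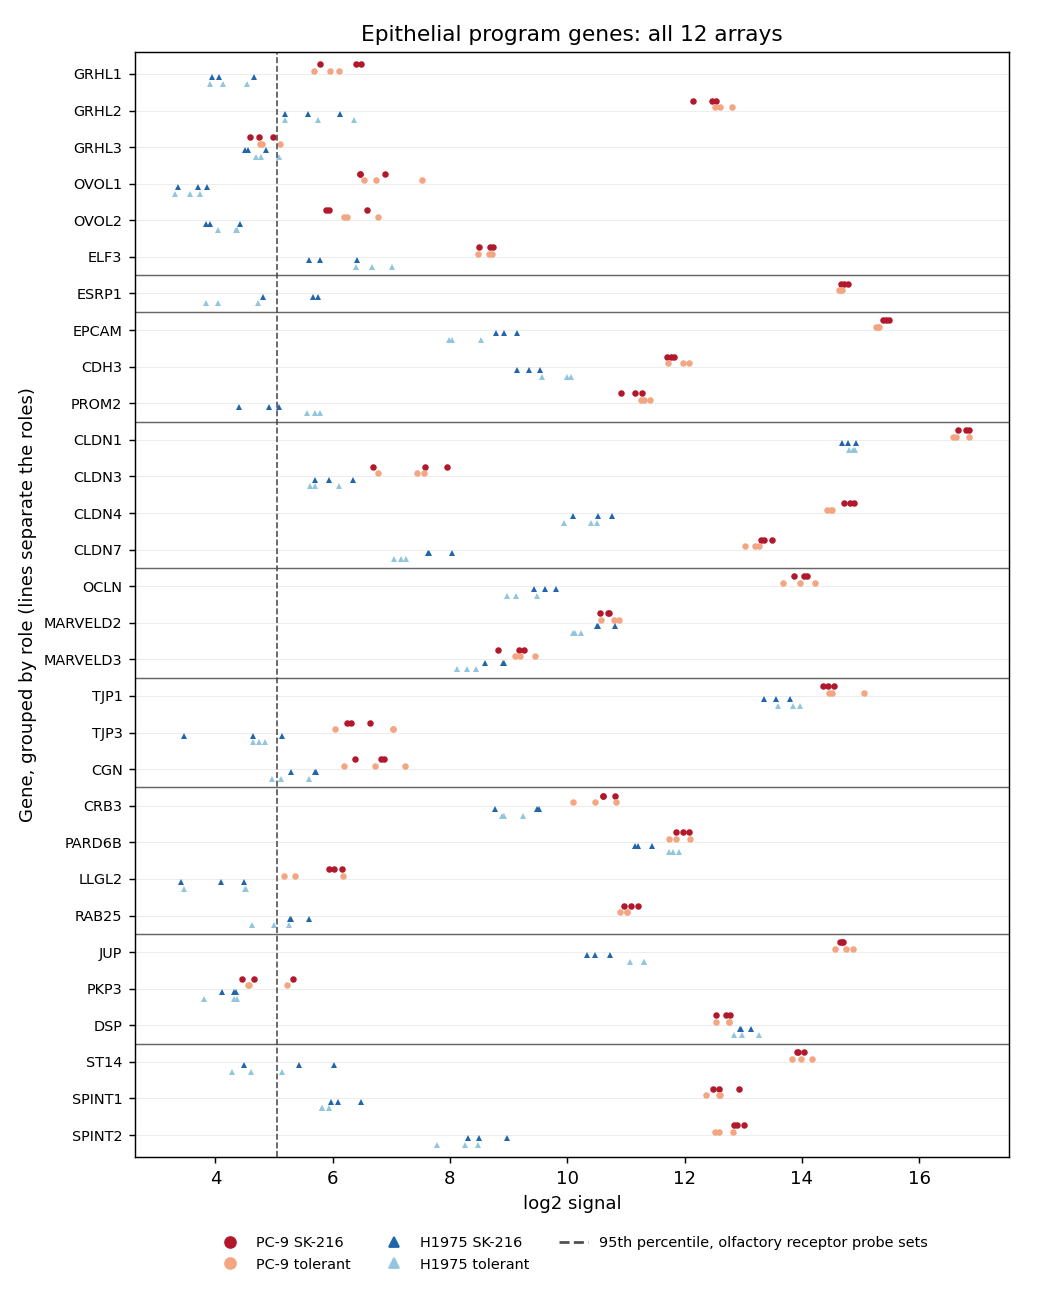
Log2 signal (horizontal axis) of the 30 measured genes in each of the 12 arrays, 3 per group, with genes grouped by role and the dashed line at the 95th percentile of olfactory receptor probe sets (5.06). Among tolerant cells 27 of 30 members were called higher in PC-9, beside 21.3% of all probe sets. The lines lie far apart for ESRP1 and ST14, while the PC-9 points of DSP lie to the left.

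Summed over the set, 2 of 30 members, GRHL3 and PKP3, averaged at or below the dim mark in either PC-9 group, against 8 in H1975 cells with SK-216 and 10 in tolerant H1975 cells. The difference between tolerant lines was over 4 on the log2 scale for 11 members, namely GRHL2, ESRP1, EPCAM, PROM2, CLDN4, CLDN7, OCLN, RAB25, ST14, SPINT1 and SPINT2. Between SK-216 groups it was over 4 for 12, the same genes and JUP. The spread between arrays of a group was small beside such gaps, with a median SD over members of 0.119 in PC-9 SK-216 arrays, 0.176 in tolerant PC-9 arrays, 0.244 in H1975 SK-216 arrays and 0.235 in tolerant H1975 arrays.

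Members of the program changed in both directions with SK-216 in H1975. Of the 30, 4 rose and 5 fell, while 1.44% of all probe sets rose and 2.35% fell. ESRP1, EPCAM, CLDN7 and MARVELD2 rose, and PROM2, ELF3, JUP, PARD6B and CDH3 fell. The median change was 0.10 for the members and 0.01 for all probe sets. Above 0 were 17 of 30 members, beside 11074 of all 21448 probe sets. The epithelial line markers moved too: EGFR rose while KRT8 and CDH1 fell, and the mean level of the 6 lay between 11.32 and 11.35 in H1975 SK-216 arrays, against 11.66 and 11.78 in tolerant H1975 arrays. COL1A1, of the fibroblast list, changed by -0.96 ± 0.21. The part of these shifts in the members' changes was not tested.

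ESRP1 had 4.82, 5.67 and 5.75 in H1975 arrays with SK-216, against 4.73, 4.05 and 3.84 in tolerant H1975 arrays. Every SK-216 array lay above every tolerant array, and 2 of them lay above the dim mark. The change was 1.21 ± 0.21 (adjusted p = 0.000675). Since the tolerant mean of 4.21 lay below the dim mark, the size of this rise is uncertain. With the tolerant arrays raised to the mark it was 0.36, a difference of means given without a standard error.

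EPCAM had 8.78, 9.14 and 8.92 with SK-216, against 8.03, 7.98 and 8.53 in tolerant H1975 cells. The groups did not overlap, and the rise was 0.77 ± 0.13 (adjusted p = 0.00044), or 1.70-fold. CLDN7, a claudin that binds EPCAM, had 7.65, 8.03 and 7.63 with SK-216, against 7.25, 7.16 and 7.05 in tolerant cells. It rose by 0.62 ± 0.13 (adjusted p = 0.00608), with all SK-216 arrays above all tolerant ones, a call that ended when H1975 was fitted alone. MARVELD2, tricellulin, which seals the corners where cells meet, had 10.5, 10.53 and 10.81 with SK-216, against 10.13, 10.24 and 10.09 in tolerant cells. Its rise of 0.46 ± 0.13 passed narrowly (adjusted p = 0.039), without overlap of the groups, and the call ended when any 1 H1975 array was left out.

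PROM2 fell, with 5.08, 4.41 and 4.92 with SK-216, against 5.79, 5.57 and 5.69 in tolerant H1975 cells. All tolerant arrays lay above the dim mark and 2 of 3 SK-216 arrays below it, with a measured change of -0.88 ± 0.18 (adjusted p = 0.00376). With the SK-216 arrays raised to the mark, the tolerant mean was at least 0.62 higher. JUP, which links desmosomal and classical cadherins to the cytoskeleton, had 10.33, 10.72 and 10.48 with SK-216, against 11.30, 11.07 and 11.30 in tolerant cells. The groups were separate, and the change was -0.71 ± 0.11 (adjusted p = 0.000167). PARD6B had 11.20, 11.15 and 11.44 with SK-216, against 11.80, 11.90 and 11.74 in tolerant cells. It fell by 0.55 on the log2 scale (standard error 0.12, adjusted p = 0.00527), a call lost without the variance trend. With SK-216 it was lower in H1975 than in PC-9 cells, by 0.71 ± 0.12 (PC-9 minus H1975), where tolerant cells had shown no called difference.

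CDH3 and ELF3 fell with less margin. CDH3 had 9.53, 9.35 and 9.15 with SK-216, against 9.57, 10.06 and 9.99 in tolerant H1975 cells, so the groups were separate by a narrow gap. The change was -0.53 ± 0.14 (adjusted p = 0.0322). ELF3 had 5.79, 6.42 and 5.59 with SK-216, against 7.01, 6.67 and 6.40 in tolerant cells. The highest SK-216 array overlapped the lowest tolerant array, and the change was -0.76 ± 0.21 (adjusted p = 0.0438). The calls of CDH3 and ELF3 were lost in 4 and 8 fits out of 12 when arrays were omitted singly.

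**Figure D2:**
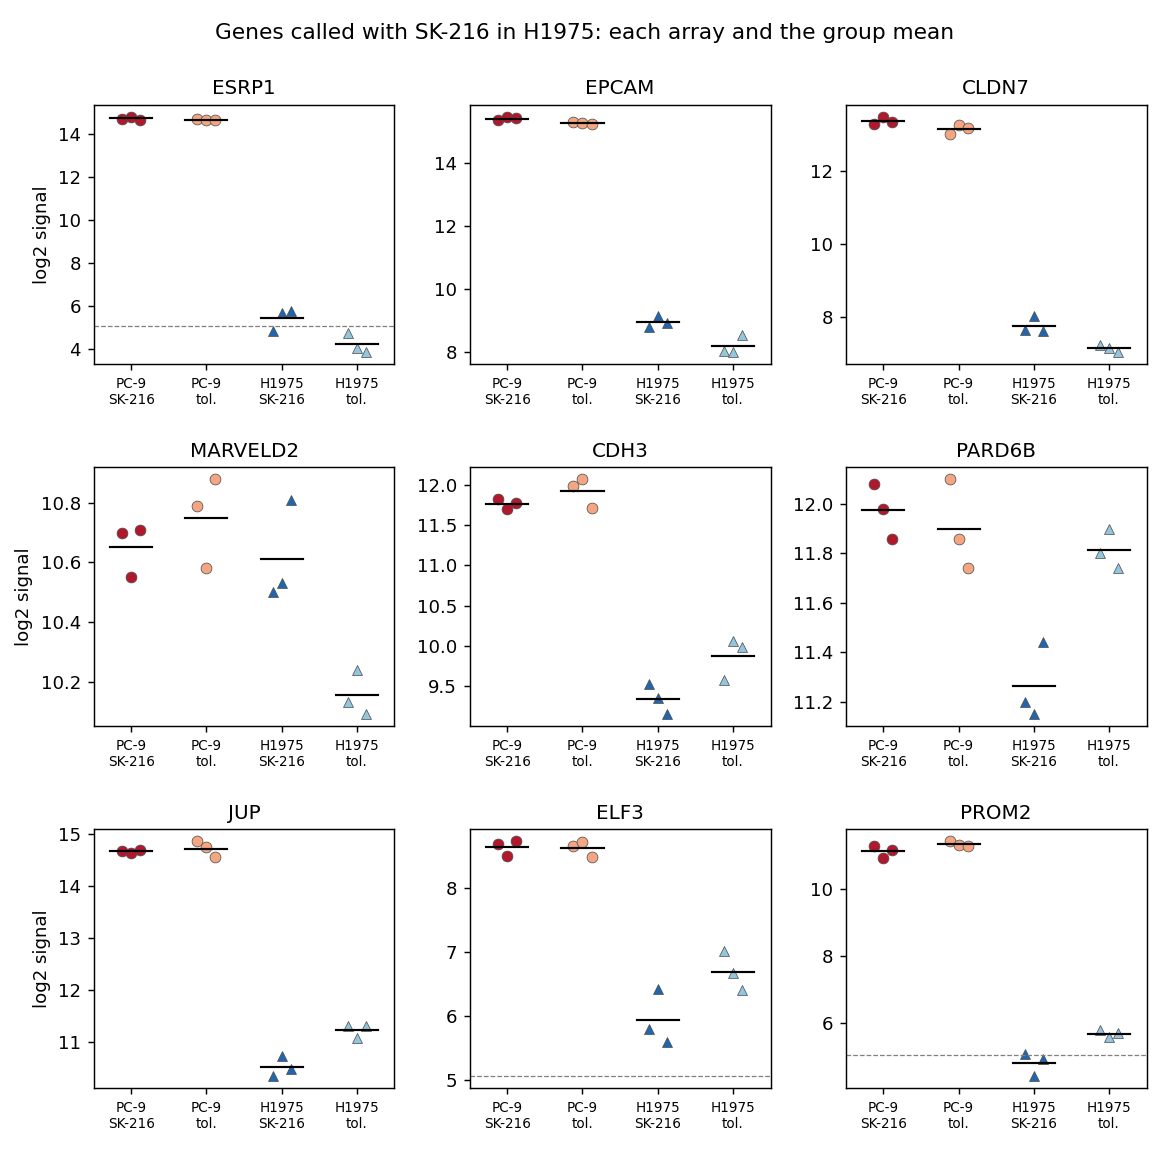
Log2 signal (vertical axis, scaled for each gene and not starting at 0) of the 9 members called with SK-216 in H1975, with each array as a point and the group mean as a bar, for PC-9 and H1975 with SK-216 and for tolerant cells (tol.). The dashed line marks 5.06. The H1975 groups are separate for 8 genes and overlap for ELF3, and the PC-9 groups lie at nearly the same height for ESRP1 and JUP. The share of all probe sets with separate groups was not counted. These 9 genes were picked by the test on the same arrays, so the separation is no further support.

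The other 21 members did not pass in H1975. Values above 0 with an unadjusted p below 0.05 were measured for ST14 at 0.63 ± 0.25, MARVELD3 at 0.52 ± 0.17, OCLN at 0.43 ± 0.14, RAB25 at 0.42 ± 0.18 and SPINT2 at 0.42 ± 0.17 (adjusted p = 0.212, 0.0913, 0.111, 0.248 and 0.213). MARVELD3, RAB25 and SPINT1 had every SK-216 array above every tolerant array without passing. How many of all probe sets separated in that way was not counted. Of the claudins, CLDN4 was at 0.18 ± 0.14, CLDN3 at 0.19 ± 0.28 and CLDN1 at -0.06 ± 0.08. The transcription factors other than ELF3 lay between -0.21 for GRHL3 and 0.11 for OVOL1, with GRHL2 at -0.13 ± 0.23 (95% interval -0.61 to 0.35). Scaffolds were at -0.23 ± 0.13 for TJP1, -0.33 ± 0.32 for TJP3 and 0.34 ± 0.25 for CGN, and DSP was at -0.02 ± 0.11. CRB3 was at 0.24 ± 0.19, LLGL2 at -0.17 ± 0.30, SPINT1 at 0.33 ± 0.16 and PKP3 at 0.09 ± 0.24.

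In PC-9 cells no member passed with SK-216, 0 of 30 in either direction, where 0.373% of all probe sets rose and 0.0699% fell (limma, the 1 tool run). At an unadjusted p below 0.05 there was 1 of 30 members, beside 2342 of 21448 probe sets. It was CLDN4, whose arrays read 14.72, 14.82 and 14.88 with SK-216, against 14.43, 14.52 and 14.50 in tolerant PC-9 cells. Its groups did not overlap, and its change was 0.32 ± 0.14 (adjusted p = 0.392). EPCAM had 15.38, 15.48 and 15.44 with SK-216, against 15.31, 15.29 and 15.26 in tolerant PC-9 cells, also without overlap, at 0.15 ± 0.13. ESRP1 had 14.71, 14.78 and 14.66 with SK-216, against 14.69, 14.65 and 14.64 in tolerant PC-9 cells, which overlapped. Its change was 0.06 ± 0.21, with a 95% interval of -0.37 to 0.48.

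The median change over members in PC-9 was 0.02, beside 0.00 over all probe sets, and single values ran from -0.32 for OVOL1 to 0.48 for LLGL2. CLDN7 was at 0.22 ± 0.13 and SPINT2 at 0.28 ± 0.17, both with all SK-216 arrays above all tolerant arrays but not past the test. The share of all probe sets without overlap in PC-9 was not counted. The members that fell in H1975 were at -0.21 ± 0.18 for PROM2, -0.05 ± 0.11 for JUP, 0.07 ± 0.12 for PARD6B, -0.16 ± 0.14 for CDH3 and 0.02 ± 0.21 for ELF3. Tolerant PC-9 means of ESRP1 and EPCAM were 14.66 ± 0.03 and 15.29 ± 0.03 (SD, n = 3 each), against 4.21 ± 0.47 and 8.18 ± 0.30 in tolerant H1975 cells.

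**Figure D3:**
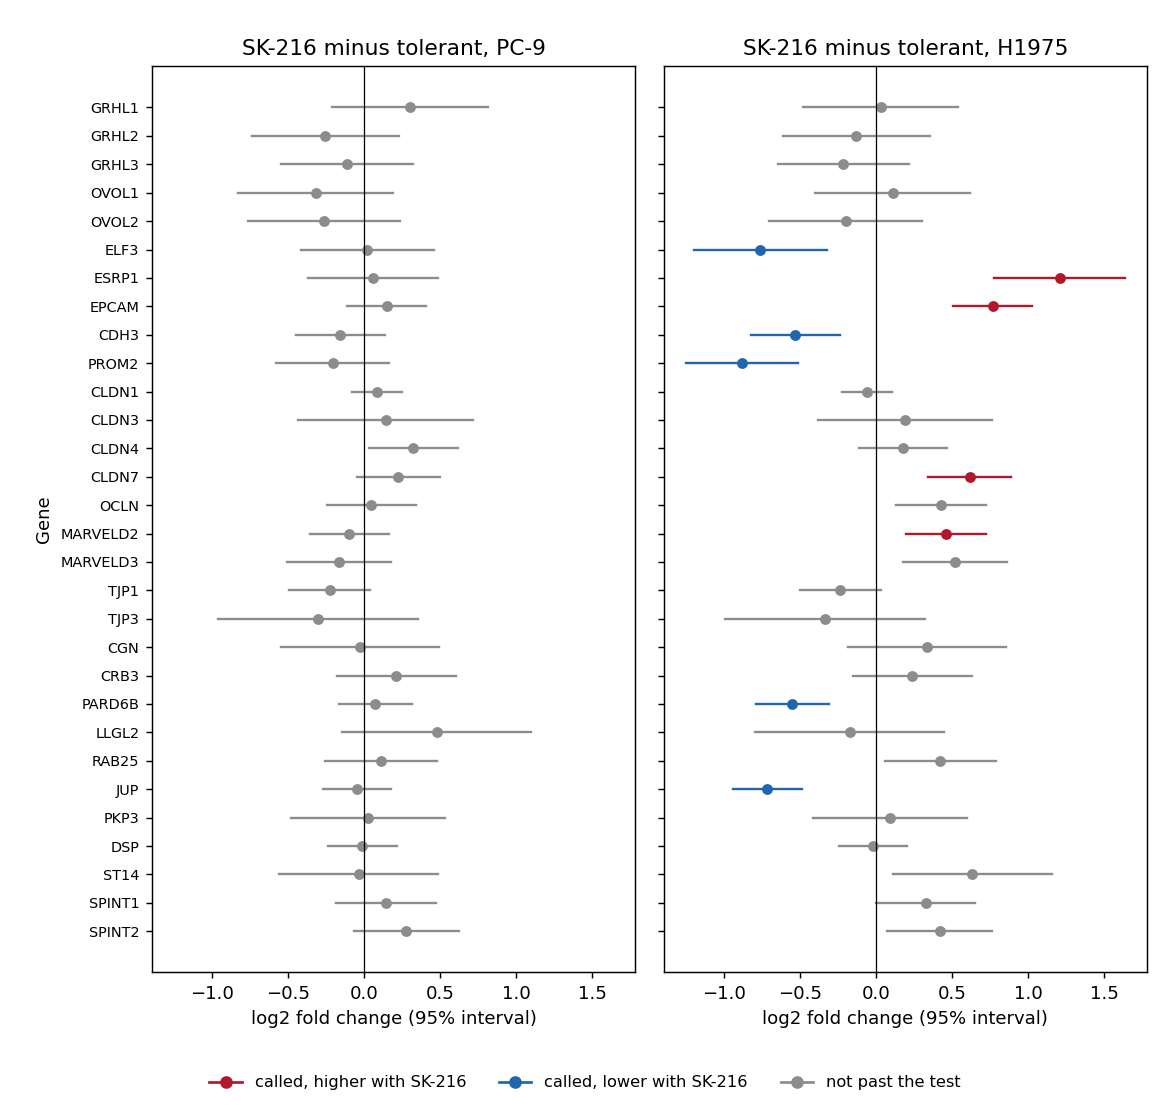
Change with SK-216 (log2 fold change with its 95% interval, horizontal axis) of each measured gene in PC-9 (left) and H1975 (right), coloured by the test. In H1975, 4 genes were called higher and 5 lower, beside 1.44% and 2.35% of all probe sets. In PC-9 no gene was called, beside 0.373% of all probe sets higher and 0.0699% lower.

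The change with SK-216 differed between the lines for 2 of 30 members, where 1.09% of all probe sets had a higher and 0.331% a lower change in PC-9. JUP had a higher change in PC-9, by 0.67 ± 0.15 (adjusted p = 0.0228), and ESRP1 a lower one, by -1.15 ± 0.29 (adjusted p = 0.0477), a size that rests on the dim tolerant H1975 arrays. PARD6B was at 0.62 ± 0.16 (adjusted p = 0.0577) and EPCAM at -0.62 ± 0.18 (adjusted p = 0.0885), neither past the test. For the other members called in H1975 the difference was 0.67 ± 0.25 for PROM2, 0.78 ± 0.30 for ELF3, 0.37 ± 0.20 for CDH3, -0.39 ± 0.19 for CLDN7 and -0.56 ± 0.18 for MARVELD2, so a difference between lines was not shown for these. Both calls ended in most fits that left out 1 array, including all 3 that left out a PC-9 SK-216 array.

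Reference promoter windows were examined because the program is known to be repressed by ZEB and SNAI factors, which bind the E-box CACCTG. RefSeq windows of 300 bases (GRCh38.p14, 250 before to 50 after an annotated start) were listed for 18 of the 32 genes, with 27 windows in all. Both strands were searched for CACCTG, which reads CAGGTG on the other strand. At least 1 match lay in 13 of the 27 windows, or 48.1%, while 20.6% of all 35116 windows and 19.9% of windows of genes named on the array held one. Counted by gene, 12 of the 18 had a match. Several genes had more than 1 window, so the shares of windows do not apply to that count. The grainyhead core AACNNGTT, which reads the same on both strands, lay in 1 window, that of CGN, or 3.7%, against 3.23% of windows of genes named on the array. No match was searched for outside these windows, and a match shows letters, not binding.

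The windows below are shown because CLDN7 and CRB3 held 5 matches each, the most among the members, and because JUP and ELF3 fell in H1975 with matches in theirs, 2 and 1. Capitals mark CACCTG or CAGGTG, and each sequence runs 5′ to 3′ on the gene's strand, with the annotated start after the first 250 bases.
CLDN7, chr17:7262429-7262728, minus strand: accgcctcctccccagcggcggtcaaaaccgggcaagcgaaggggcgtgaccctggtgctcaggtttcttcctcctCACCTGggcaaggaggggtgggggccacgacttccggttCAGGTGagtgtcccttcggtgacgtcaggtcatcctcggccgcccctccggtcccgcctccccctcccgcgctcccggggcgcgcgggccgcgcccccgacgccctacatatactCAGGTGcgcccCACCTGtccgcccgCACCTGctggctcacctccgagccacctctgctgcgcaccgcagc
CRB3, chr19:6464021-6464320, plus strand: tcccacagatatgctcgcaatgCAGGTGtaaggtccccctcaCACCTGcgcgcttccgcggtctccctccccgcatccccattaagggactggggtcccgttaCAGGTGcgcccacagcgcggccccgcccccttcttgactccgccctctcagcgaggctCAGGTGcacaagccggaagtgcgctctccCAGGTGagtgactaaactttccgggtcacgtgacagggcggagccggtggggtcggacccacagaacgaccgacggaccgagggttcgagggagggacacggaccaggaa
JUP, chr17:41785927-41786226, minus strand: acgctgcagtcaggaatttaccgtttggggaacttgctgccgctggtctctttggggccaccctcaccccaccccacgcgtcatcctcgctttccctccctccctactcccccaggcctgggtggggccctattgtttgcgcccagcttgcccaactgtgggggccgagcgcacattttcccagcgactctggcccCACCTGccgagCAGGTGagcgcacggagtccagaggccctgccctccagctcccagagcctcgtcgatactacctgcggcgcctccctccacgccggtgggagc
ELF3, chr1:202010337-202010636, plus strand: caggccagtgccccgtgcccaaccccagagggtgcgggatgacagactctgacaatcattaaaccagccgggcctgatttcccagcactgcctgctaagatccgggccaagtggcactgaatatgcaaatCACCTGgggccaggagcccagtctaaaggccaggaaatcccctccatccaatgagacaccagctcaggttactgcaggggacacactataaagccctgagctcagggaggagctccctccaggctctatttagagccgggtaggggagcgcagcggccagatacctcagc

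In the CLDN7 window, 3 of the 5 matches begin at -20, -9 and 6 from the start, counted with no position 0. Upstream windows were also listed for CLDN7 and JUP, and neither held a match, nor did those of PROM2 and MARVELD2. Members with matches included CLDN7, which rose in H1975, JUP and ELF3, which fell, and CRB3 and DSP, which did not pass. Of the members called in H1975, 4 had no window listed, namely ESRP1, EPCAM, CDH3 and PARD6B. Of 12 mesenchymal regulators and markers, 7 were lower in tolerant PC-9 than in tolerant H1975 cells and 2 were higher, where 22.7% of all probe sets were lower and 21.3% higher. ZEB1 averaged 5.06 in tolerant PC-9 cells, a level near the dim mark, and 11.98 in tolerant H1975 cells. Its difference was -6.93 ± 0.23, a size open to the low end of the signal. ZEB2 differed by -2.07 ± 0.21, SNAI1 by -4.03 ± 0.20 and SNAI2 by -0.80 ± 0.11. VIM, the mesenchymal filament vimentin, differed by -6.39 ± 0.14. The 2 that were higher in PC-9 were CDH2, N-cadherin, by 6.36 ± 0.21 from a tolerant H1975 mean of 4.96, below the dim mark, and TWIST2, a basic helix-loop-helix factor, by 0.63 ± 0.23. SNAI1, CDH2 and TWIST2 were named after their values were seen. With SK-216, SNAI2 changed by -0.58 ± 0.11 in PC-9 and by -0.67 ± 0.11 in H1975, while ZEB1 was at 0.29 ± 0.23 and -0.09 ± 0.23, and ZEB2 at -0.42 ± 0.21 and -0.15 ± 0.21, none of the last 4 past the test. CDH1, E-cadherin, fell in H1975, by -1.55 ± 0.13, where EPCAM rose, and was at 0.20 ± 0.13 in PC-9. VIM was at 0.21 ± 0.14 in PC-9 and 0.01 ± 0.14 in H1975.

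Further genes of junctions and polarity were counted beside shares of all probe sets of 0.373% higher and 0.0699% lower with SK-216 in PC-9, and of 1.44% higher and 2.35% lower in H1975. At an unadjusted p below 0.05 by limma there were 2342 of 21448 probe sets in PC-9 and 3045 in H1975. Of 21 further claudin and tight junction genes measured, 0 were called in either line by limma, with 2 in PC-9 and 0 in H1975 at an unadjusted p below 0.05. Of 14 desmosome and hemidesmosome genes 0 were called, with 3 and 4 at that unadjusted level. Of 12 adherens junction genes 2 fell in H1975, CDH1 and NECTIN2, a nectin adhesion receptor, at -0.41 ± 0.11, and of 24 polarity genes 1 fell, PATJ, a scaffold of the Crumbs complex, at -0.59 ± 0.16. Neither list had a call in PC-9, where 1 adherens junction gene and 3 polarity genes had an unadjusted p below 0.05. Between tolerant lines, where 21.3% of all probe sets were higher in PC-9 and 22.7% lower, 11 of the tight junction genes were higher in PC-9 and 2 lower, 8 and 1 of the desmosome genes, 8 and 2 of the adherens junction genes, and 13 and 3 of the polarity genes. The median line difference was 0.44, 0.86, 0.71 and 0.52 for these lists, below the 2.00 of the members. No test compared the lists, and members and lists were chosen with earlier results of these data known.

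Splicing regulators that act with or against ESRP proteins were read against the same shares. Of 13 such genes 0 passed in either line by limma. At an unadjusted p below 0.05 there were 0 in PC-9 and 3 in H1975, beside 2342 and 3045 of 21448 probe sets. Between tolerant lines 4 were higher and 4 lower in PC-9, beside 21.3% and 22.7% of all probe sets. Of 8 genes known for epithelial splice forms 1 rose in PC-9, CD44, a hyaluronan receptor, at 0.48 ± 0.10 (adjusted p = 0.0229), and 0 in H1975, also at an unadjusted p below 0.05. A probe set gives 1 value per gene here, so splice forms were not measured.

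Of 13 further epithelial transcription factors 1 rose and 1 fell in H1975, beside 1.44% and 2.35% of all probe sets. EHF, an ETS factor close to ELF3, fell by 1.34 on the log2 scale (standard error 0.19, adjusted p = 8.6e-05) and TFCP2L1, of the grainyhead-related CP2 family, rose by 0.61 ± 0.17 (adjusted p = 0.0449). EHF was at 0.04 ± 0.19 in PC-9, and the difference between the lines passed at 1.38 ± 0.27 (adjusted p = 0.00718). Of 15 genes in a list of membrane proteases and inhibitors 2 fell and 0 rose in H1975. They were TMPRSS2, a serine protease, at -0.84 ± 0.24 and CD24, a glycosylated surface protein that is no protease, at -0.93 ± 0.09. Neither of these lists had a call in PC-9 cells. There 1 transcription factor and 0 protease genes had an unadjusted p below 0.05, beside 2342 of 21448 probe sets. Of the 12 mesenchymal regulators and markers, 1 fell with SK-216 in PC-9 (SNAI2), beside 0.0699% of all probe sets, and 3 in H1975 (SNAI2, FN1 and TGFBI), beside 2.35%. None of the 12 was called higher, beside 0.373% of all probe sets in PC-9 and 1.44% in H1975.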

How the data were processed

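RNA of 12 samples was measured on a 1-colour oligonucleotide array, with 250 ng per array per the labels' protocols. The authors deposited log2 signals, 1 per probe set and array, from 2.19 to 18.61. Per the submitters' processing notes, Transcriptome Analysis Console was used. Its version and how it summarised and normalized the probes are not given in the sources read here. Array medians lay between 6.56 and 6.62, so nothing was normalized again or filtered out. Arrays give no read depth, and their number limits the precision. The array's genome build was not stated, and coordinates are those of the RefSeq promoter table.

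Of 21448 probe sets, 17709 had 1 symbol and 3739 were unnamed here. limma 3.58.1 in R 4.3.3 fitted 4 group means to all 12 arrays with eBayes and a variance trend, and p-values were two-sided and adjusted (Benjamini-Hochberg) within each of 5 contrasts over every probe set. Calls had an adjusted p below 0.05. In simulated data of 21448 probe sets, planted changes of 0.5, 1 and 2 were recovered in 22.4%, 86.6% and 100% for SK-216 in H1975, in 20.9%, 88.1% and 100% in PC-9, and in 7.46%, 55.2% and 98.5% for the difference between lines. The members and lists were chosen with earlier results of these data known. The rule for names took all members, and of each further list up to 4 genes called with SK-216. Alternatives changed the trend, the prior, the samples, the scaling, the filter, the weights, the threshold, a replicate block and each array. Figures were drawn with matplotlib 3.10.9.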

Additional observations from a re-analysis of the deposited data

Results flagged for a closer look

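For 2 members the change with SK-216 differed between the lines by the interaction test of limma. Of all probe sets, 1.09% had a higher and 0.331% a lower change in PC-9. Leaving out 1 array ended the call of ESRP1 in 10 of 12 fits and that of JUP in 8. ESRP1 was at 0.06 ± 0.21 in PC-9 and rose by 1.21 ± 0.21 in H1975, a difference of -1.15 ± 0.29, with its tolerant H1975 arrays below the level of 5.06 and its PC-9 arrays between 14.64 and 14.78. JUP was at -0.05 ± 0.11 in PC-9 and changed by -0.71 ± 0.11 in H1975, a difference of 0.67 ± 0.15. The SK-216 arrays of JUP lay below the tolerant arrays in H1975 and overlapped them in PC-9.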

How the results depend on the processing

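No called member changed sign under any alternative run. In H1975, ESRP1, EPCAM, PROM2 and JUP stayed called in all of them, and CLDN7 and PARD6B each lost the call in 1 (H1975 fitted alone, and no variance trend). The count of 9 became 5 without the variance trend and 5 with each line fitted alone, was 6 at an adjusted p below 0.01, and ran from 6 to 9 when 1 array was left out, lowest without H1975 SK-216 replicate 3. MARVELD2 lost its call without any 1 H1975 array or PC-9 SK-216 replicate 1 or 3 (highest adjusted p = 0.202). ELF3 lost it without H1975 tolerant replicate 1 or 2, H1975 SK-216 replicate 1 or 3, PC-9 tolerant replicate 3 or any PC-9 SK-216 array (highest 0.234). CDH3 lost it without H1975 tolerant replicate 2 or 3 or SK-216 replicate 2 or 3 (highest 0.166). The count in PC-9 was 0 throughout, also in each fit that left out 1 array (0 to 0). The count of 2 for the difference between lines became 0 without the trend and 0 at an adjusted p below 0.01. It ran from 0 to 2 when 1 array was left out, with 0 without PC-9 tolerant replicate 3 or any PC-9 SK-216 array and 1 without H1975 tolerant replicate 1, 2 or 3, H1975 SK-216 replicate 1 or 3, or PC-9 tolerant replicate 2. The adjusted p reached 0.129 for ESRP1 and 0.0898 for JUP. ESRP1 also lost that call with array weights, where PARD6B gained it, and JUP with quantile normalization, where EPCAM gained it. EPCAM also gained it without H1975 tolerant replicate 3, where ESRP1 and JUP both lost it. PARD6B also gained it without H1975 SK-216 replicate 3 or PC-9 tolerant replicate 1. With the dimmest 30% left out PARD6B was called as well, and the count was 3. ST14 gained the call without H1975 SK-216 replicate 2. Between lines the counts ran from 27 to 28 for tolerant and from 25 to 27 for SK-216 cells when 1 array was left out, and were 26 and 25 without the trend and at an adjusted p below 0.01. PKP3 between tolerant lines lost its call without H1975 tolerant replicate 2 or 3 or PC-9 tolerant replicate 1 (highest 0.247) and with quantile normalization, centring or array weights, and DSP without H1975 tolerant replicate 1 or PC-9 tolerant replicate 2 (highest 0.116). Both also lost it without the trend and at an adjusted p below 0.01.

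With a replicate block inside each line, 6 members were called in H1975, 0 in PC-9 and 0 for the difference. As 1 block over both lines it gave 8, 0 and 1. Deviations of same-numbered arrays correlated between -0.091 and 0.029. In H1975, SK-216 arrays 2 and 3 correlated best with another number (0.094 and 0.089). H1975 SK-216 array 1 and the PC-9 SK-216 arrays correlated best with their own number (0.007, 0.029, 0.02 and 0.015). With values this small, whether same-numbered arrays were paired cannot be told. Fits of each line alone give no comparison of lines, and a block inside a line gives none of levels between them.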

Other observations

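ST14, the protease matriptase, was uneven among H1975 arrays with SK-216. It had 5.42, 4.48 and 6.03 there, against 5.13, 4.29 and 4.61 in tolerant H1975 cells, and did not pass (adjusted p = 0.212). Without SK-216 replicate 2 its adjusted p was 0.00349, and over all fits that left out 1 array it ran from 0.00349 to 0.706. TJP3 had the widest spread of any member in that group, with 3.46, 5.13 and 4.64 in H1975 arrays with SK-216, against 4.74, 4.64 and 4.85 in tolerant H1975 arrays.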
